A study of Mus musculus with 12 samples.

Results

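The genes described here are 10 mouse genes of the unfolded protein response: Hspa5, Dnajb9, Herpud1, Xbp1, Ern1, Ern2, Atf4, Atf3, Ddit3 and Creb3l1. They were taken by symbol from the colon and blood tables of normalized values, and they are 10 of the genes behind 53801 counted identifiers. Together they carry 11 identifiers, since a short locus inside Ddit3 shares its symbol. That locus had 1 or 2 counts in each library and is not described further. All 11 identifiers were in the colon table of 32689 genes and 10 in the blood table of 25514 genes, where Ern2 was the one missing.

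Total RNA-seq was made from the colon and whole blood of C57BL/6 male mice, which were 8 weeks old when obtained. Mice labelled UC (ulcerative colitis) had 1.5% dextran sulfate sodium (DSS), a sulfated sugar polymer that injures the gut lining, in the drinking water for 7 days, and mice labelled control had the same water without DSS. All were killed on day 8. There were 12 libraries in 4 groups of 3, namely UC colon and UC blood from mice 1, 2 and 4 and control colon and control blood from mice 7, 8 and 9. The study picked these mice by their disease activity index, and both tissues came from whole colon or whole blood rather than sorted cells. A lower value in such samples can mean fewer cells of a type or less RNA per cell, and these cannot be told apart. Ribosomal RNA was removed from colon RNA, and ribosomal and globin RNA from blood RNA, so tissue and removal kit cannot be told apart either.

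Colon libraries held 69181049 to 103662306 counts and blood libraries 80867247 to 142536804, and 7SL RNA took 4.90% to 6.50% of colon counts and 35.92% to 65.37% of blood counts. The disease labels went against the inflammatory genes. S100a8, a neutrophil alarmin, stood at 5370 (mouse 1), 33.09 (mouse 2) and 22.27 (mouse 4) normalized counts in colon labelled UC, and at 1888 (mouse 7), 75.63 (mouse 8) and 13337 (mouse 9) in colon labelled control. The libraries are therefore called labelled UC and labelled control, and no direction below is a direction of colitis. The tissue label was checked in the same way. Each of 6 epithelial markers was called higher in the colon and each of 5 red cell markers higher in the blood. In the blood, the summed normalized count of 8 goblet cell markers was 4.594 to 311.6, against 1127012 to 2191362 in the colon.

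The unfolded protein response is set off when proteins fail to fold in the endoplasmic reticulum (ER). IRE1, encoded by Ern1 and, in mucosal epithelium, Ern2, splices the Xbp1 mRNA so that it yields an active transcription factor. PERK phosphorylates eIF2alpha, which slows translation in general and favours that of ATF4, and ATF6 is cut at the Golgi to release a further factor. ATF6 and XBP1 switch on chaperones and degradation factors, while ATF4 switches on Atf3, Ddit3 (CHOP) and genes of amino acid supply. In the colon this response is well known in goblet cells, which secrete large amounts of mucin. Counts per gene do not tell spliced from unspliced Xbp1, and ATF4 is regulated largely in translation.

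Several of the targets carry known response elements close to their start. Promoters were read from RefSeq (GRCm38.p6), which held 8 of the 10 genes (not Ern2 or Creb3l1). The window was 250 bases before and 50 bases after the start, and both strands were searched. The ER stress element (ERSE) was searched as CCAAT and CCACG with 9 bases between them, ERSE-II as ATTGG and CCACG with 1 base between them, the unfolded protein response element as TGACGTGG, and the C/EBP-ATF element, which ATF4 binds, as TGATG and AA with 1 base between them. None of the matches in the 8 promoters overlapped another. They were present in 0.119%, 0.0365%, 0.676% and 3.97% of 32851 promoters. Of the 8 genes, Hspa5 held ERSE, Herpud1 held ERSE-II and C/EBP-ATF, and Atf3 held C/EBP-ATF. These windows show the elements that were found, in capitals, on the strand of the gene. The C/EBP-ATF elements lie on the opposite strand. The Hspa5 and Atf3 windows are 30 bases long at chr2:34772020-34772049 (plus strand) and chr1:191183425-191183454 (minus strand), and the Herpud1 window is the 200 bases before its start, chr8:94386229-94386428 (plus strand).
Hspa5: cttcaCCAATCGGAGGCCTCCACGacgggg
Herpud1: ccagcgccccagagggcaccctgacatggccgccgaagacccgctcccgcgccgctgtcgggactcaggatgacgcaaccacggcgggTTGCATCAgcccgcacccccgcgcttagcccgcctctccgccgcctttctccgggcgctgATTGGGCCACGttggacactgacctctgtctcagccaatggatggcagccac
Atf3: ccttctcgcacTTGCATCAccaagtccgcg

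ERSE was also spelled out in some promoters of the folding genes that are described beside Hspa5 below. Of 15 ER chaperone and folding genes with a promoter in RefSeq, 8 held ERSE or ERSE-II, against 49 of all 27025 gene symbols. The lines below give ERSE in the direction in which it reads CCAAT to CCACG, with those parts in capitals. They show that the ends match and the 9 bases between them differ from gene to gene. The elements lie at chr10:86705533-86705551 (Hsp90b1), chr8:84847075-84847093 (Calr), chr11:50325800-50325818 (Canx), chr12:17266491-17266509 (Pdia6), chr14:118937827-118937845 (Dnajc3) and chr15:88819520-88819538 (Creld2). Those given for Hsp90b1, Calr and Creld2 are on the strand opposite to the gene. A second ERSE of Hsp90b1, on its own strand at chr10:86705638-86705656, is not printed. Nor is the ERSE of Ero1b, at chr13:12565682-12565700. Ero1b is another name of Ero1lb, the only chaperone of the list called lower in colon than in blood (below). A match in letters does not show that a factor binds there.
Hsp90b1: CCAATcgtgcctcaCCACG
Calr: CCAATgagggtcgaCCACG
Canx: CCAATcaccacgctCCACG
Pdia6: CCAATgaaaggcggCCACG
Dnajc3: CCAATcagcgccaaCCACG
Creld2: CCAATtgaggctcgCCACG

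The first comparison concerned where the genes were expressed. Of the 10 genes, 7 were called higher in colon than in blood (edgeR quasi-likelihood test over 23258 genes, Benjamini-Hochberg adjusted p of at most 0.05 and an absolute log2 fold change, log2FC, over 1), and none was called lower. Of all genes tested, 37.7% were called higher and 20.8% lower, and the median log2FC over all genes was 0.46 against 1.49 over the 10 genes. Those called were Ern2, Creb3l1, Atf3, Dnajb9, Herpud1, Hspa5 and Ern1. Levels in the sentences that follow are CPM (counts over the library total, adjusted with edgeR's TMM factors over all 12 libraries), given as the lowest, median and highest of 6 libraries per tissue.

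Ern2, the epithelial form of IRE1, had 20.87, 43.9 and 49.64 in the colon and no count in any blood library. With 3 counts taken as the limit in each blood library, its lowest colon level was at least 262-fold higher. Creb3l1, an ER-bound transcription factor of secretory cells also called OASIS, had 15.66, 21.86 and 35.97 in the colon and 0.04505, 0.1912 and 0.3852 in the blood. Its log2FC was 6.86 (SE 0.442, adjusted p = 2.49e-07, edgeR). These were the largest differences among the 10 genes, and no library of one tissue reached the range of the other.

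Among the ER-resident and membrane proteins, Hspa5 (BiP, the main ER chaperone of the HSP70 family) had 120.2, 164.4 and 303.6 in the colon and 55.47, 72.56 and 79.26 in the blood (log2FC 1.43, SE 0.217, adjusted p = 1.38e-04, edgeR). Dnajb9, a co-chaperone of BiP, differed by a log2FC of 1.76 (SE 0.253, adjusted p = 9.24e-05, edgeR), although a microRNA, Mir5627, overlaps its exon on the other strand. Herpud1, which helps to bring proteins to ER-associated degradation, differed by 1.54 (SE 0.166, adjusted p = 1.02e-05, edgeR). All 6 mice had more of each of these 3 transcripts in the colon than in their blood.

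Ern1, the widely expressed IRE1, had 27.48, 29.16 and 30.95 in the colon and 8.053, 11.07 and 24.29 in the blood, a log2FC of 1.18 (SE 0.254, adjusted p = 0.00159, edgeR). It was the steadiest of the genes in the colon, where its normalized count ranged 1.18-fold over the 6 libraries. Atf3, a stress-induced transcription factor, had 6.343, 10.43 and 52.52 in the colon and 1.54, 2.776 and 4.883 in the blood. Its log2FC of 2.37 (SE 0.473, adjusted p = 9.31e-04, edgeR) became 1.76 without mouse 2, which held the highest colon level, and 2.96 without mouse 4. It was called in each case.

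Xbp1, Atf4 and Ddit3 were not called. Xbp1 was higher in the colon in 6 of 6 mice, but its log2FC of 0.88 (SE 0.283, adjusted p = 0.016, edgeR) lay under the fold limit. It passed that limit without mouse 1 (1.07) and without mouse 8 (1.0). Atf4 was higher in the colon in 3 of 6 mice (log2FC -0.14, SE 0.283, adjusted p = 0.67, edgeR). Ddit3 (CHOP, a factor tied to cell death under lasting ER stress) had 3.83, 4.273 and 5.812 in the colon and 7.663, 7.984 and 12.4 in the blood, so each blood library lay above each colon library. Its log2FC was -0.91 (SE 0.187, adjusted p = 0.00118, edgeR), and -1.05 without mouse 4, past the fold limit.

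These directions depended on the scaling. When libraries were scaled by their totals alone, the median log2FC of all genes moved from 0.46 to 2.57, 91.1% of the calls were higher in the colon (64.4% with TMM), and Atf4 and Ddit3 became higher in the colon, at 2.02 and 1.21. Relative to the median of all genes, no sign changed over 7 settings of scaling and tool for the 9 genes other than Ern2. Taking the median away removes a shift common to all genes, so agreement between scalings is built in and is no separate check. The 7 settings leave out those of the low-count filter, where the median was 0.81 with no filter and 0.39 with a mean of at least 10 counts. Over the 7 settings, on that relative log2 scale, Ddit3 lay between -1.42 and -1.05, Atf4 between -0.6 and -0.28, Xbp1 between 0.42 and 0.75, Ern1 between 0.72 and 1.05 and Hspa5 between 0.86 and 1.3. Exons of Ddit3 overlap Mars and Gm4189 on the other strand, and the reads were quantified without a stated strand, so its counts are uncertain.

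**Figure D1:**
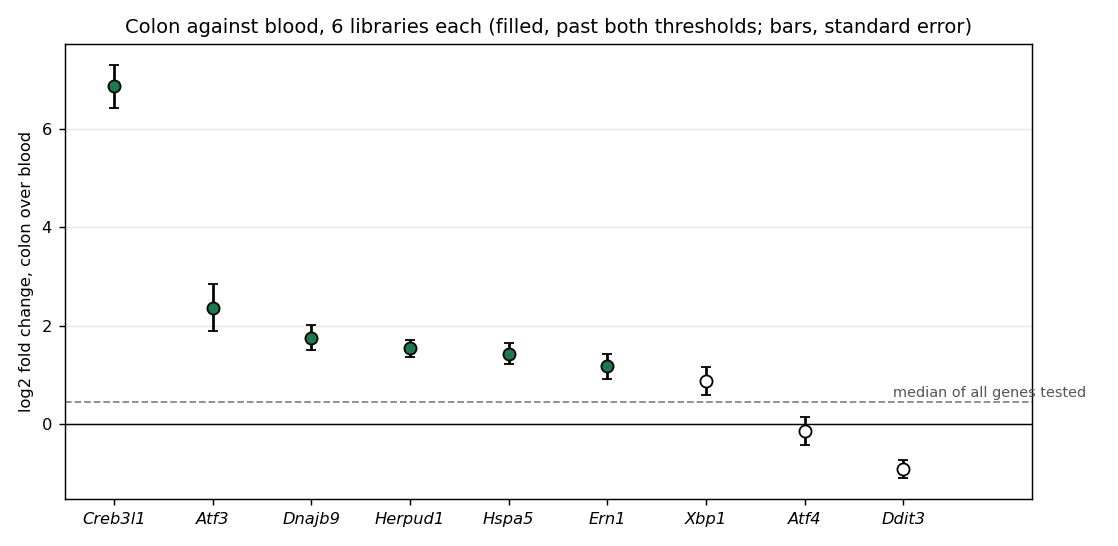
Log2 fold change of colon over blood for 9 unfolded protein response genes, with bars for the standard error and filled points for genes past both thresholds. The y axis is log2 fold change from edgeR over 6 colon and 6 blood libraries, and the dashed line is the median of all 23258 genes tested, 0.46. Ern2 is not drawn because it had no count in blood. Creb3l1 stands highest at 6.86, and Ddit3 is the lowest at -0.91.

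Within a tissue, levels were ordered per length, as counts per kilobase of exon scaled to the same total in each library over the genes of that tissue's table. In the colon the order of the medians was Hspa5 (220), Xbp1 (108), Atf4 (88.9), Herpud1 (79.4), Ern2 (78.6), Creb3l1 (44.9), Dnajb9 (30.6), Atf3 (27.7), Ern1 (19.6) and Ddit3 (13.7). The ranges of all neighbours in this order overlapped. Within libraries, Hspa5 lay above Xbp1 in 6 of 6, Ern2 above Creb3l1 in 5 of 6, and Ern1 above Ddit3 in 6 of 6. Xbp1 lay above Atf4, and Atf4 above Herpud1, in only 4 of 6. Herpud1 lay above Ern2 in 3 of 6, and Dnajb9 above Atf3 in 3 of 6, so neither pair can be ordered. The last place depends on the length used, since with each gene's longest transcript Ddit3 (20.7) lay above Ern1 (19.7). Hspa5 stood above 98.4% of the colon genes with a count and Ddit3 above 75.8%. Ern2 lay above Ern1 on this per-length scale in every colon library, by 2.03-fold in mouse 9 and by 3.67-fold to 4.71-fold in the other 5.

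In the blood the order of the medians was Atf4 (11.2), Hspa5 (10.8), Xbp1 (7.43), Ddit3 (3.84), Herpud1 (3.83), Dnajb9 (1.27), Ern1 (1.23), Atf3 (1.16) and Creb3l1 (0.0583), again per length. The ranges of neighbours overlapped from Atf4 down to Atf3. Within libraries, Ddit3 lay above Herpud1 in 4 of 6 and Ern1 above Atf3 in 3 of 6. With each gene's longest transcript, Ern1 (1.38) lay above Dnajb9 (1.26). Levels on this scale were uneven between libraries, with Hspa5 at 60.1 in mouse 9 and 16.9 in mouse 7, the next highest. Xbp1 (41.2), Atf4 (46.4) and Ddit3 (16.4) were also highest in mouse 9, though Creb3l1 was not. The normalized count of Hspa5 was 4268 in mouse 9 and 4157 in mouse 7, so this scale was not used to compare libraries. Atf4 lay above Hspa5 in only 1 of the 6 libraries, that of mouse 1, where the ratio of Atf4 to Hspa5 was 3.11. In the other 5 the ratio was between 0.679 and 0.944. In the colon the same ratio was 0.15 to 0.596, so the highest colon ratio lay under the lowest blood ratio.

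The disease labels were compared next within each tissue. In the colon, 1 of 22238 genes was called (0.00450%) between labelled UC and labelled control. It was Gm26712, which is no member and is named after its values were seen. None of the 10 genes was called or reached an unadjusted p under 0.05 in edgeR or limma-voom, and 1 (Atf3) reached it in DESeq2, where none was called. Over all genes, 313 reached it in edgeR. In the blood, 0 of 16759 genes were called (0%) and 241 reached an unadjusted p under 0.05 (DESeq2 called 6). None of the 9 genes measured in blood was called or reached that level by edgeR, DESeq2 or limma-voom. The adjusted p of each of these genes was 1 in both tissues (edgeR).

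**Figure D2:**
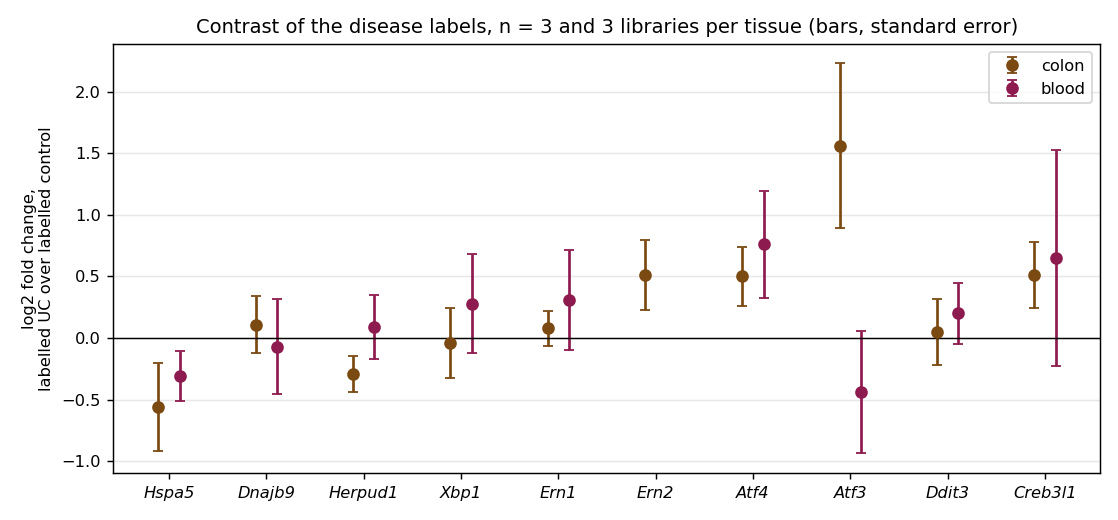
Log2 fold change of libraries labelled UC over those labelled control for each gene, in colon and in blood, with bars for the standard error (edgeR, 3 and 3 libraries per tissue). Atf3 in the colon has the highest value, 1.56, with the highest error of the colon genes, 0.669, and Ern2 has no blood value.

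The values of single libraries are given next, since libraries of the same label differed. Hspa5 in the colon reached 34313, 25418 and 24601 normalized counts (counts divided by the authors' size factors) in mice 1, 2 and 4 of the UC label, and 46996, 21475 and 54778 in mice 7, 8 and 9 of the control label. In the sentences that follow the 3 values of a label keep this order of mice. The labelled control group held both the highest and the lowest library, 2.55-fold apart, and the log2FC was -0.56 (SE 0.358, adjusted p = 1, edgeR). Xbp1 followed with 14472, 10433 and 9110 against 12117, 7891 and 14675, so that mouse 9 was again highest and mouse 8 lowest.

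Herpud1 and Ern2 were the only members whose labelled groups did not overlap in the colon, 2 of 10 genes, against 5.67% of all genes tested. Herpud1 had 6033, 5209 and 5047 under the UC label and 6389, 6404 and 6928 under the control label (log2FC -0.29, SE 0.146, adjusted p = 1, edgeR). Ern2 had 8660, 9103 and 8106 under the UC label and 6415, 7790 and 3765 under the control label (log2FC 0.51, SE 0.284, adjusted p = 1, edgeR). Neither difference passed the test. Mouse 9 had the least Ern2 and also the lowest sum of the 8 goblet cell markers. Of these markers, only Agr2 and Tff3 were lowest in mouse 9. Mouse 2, which had the most Ern2, had the next lowest sum, 1202792. The sum was 1202792 to 2191362 under the UC label and 1127012 to 1806926 under the control label, none of the 8 markers was near 0 in any colon library, and the part of goblet cell content in Ern2 was not tested.

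Atf3 in the colon had 3273, 9631 and 1481 normalized counts under the UC label and 1566, 1133 and 2151 under the control label. The library of mouse 2 was 8.5 times that of mouse 8, the widest range of the 10 genes in the colon. Its log2FC of 1.56 (SE 0.669, unadjusted p = 0.0549, adjusted p = 1, edgeR) was 0.54 without mouse 2. Of 8 immediate early genes, which cells switch on within minutes of a stimulus, 3 were highest in mouse 2, where 14.6% of all genes were highest, and 3 in mouse 9. Among those highest in mouse 2, Egr1 was 6922 there and 938.7 to 2092 elsewhere, and Fosb was 1640 against 90.75 to 471.7 (both named after their values were seen). All 6 smooth muscle markers were highest there too, with a sum of 534675 against 128101 to 409540 in the other colon libraries. The part of smooth muscle content in the Atf3 value was not tested.

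The remaining genes varied less than Atf3 in the colon. Creb3l1 had 3899, 6597 and 4052 under the UC label and 2745, 3952 and 3444 under the control label, highest in mouse 2 as well (log2FC 0.51, SE 0.267). Atf4 had 8991, 6783 and 8180 under the UC label and 3938, 6815 and 6009 under the control label (log2FC 0.5, SE 0.243). Ddit3 stayed between 691.1 and 1066 and Dnajb9 between 1864 and 3122, with overlapping groups.

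**Figure D3:**
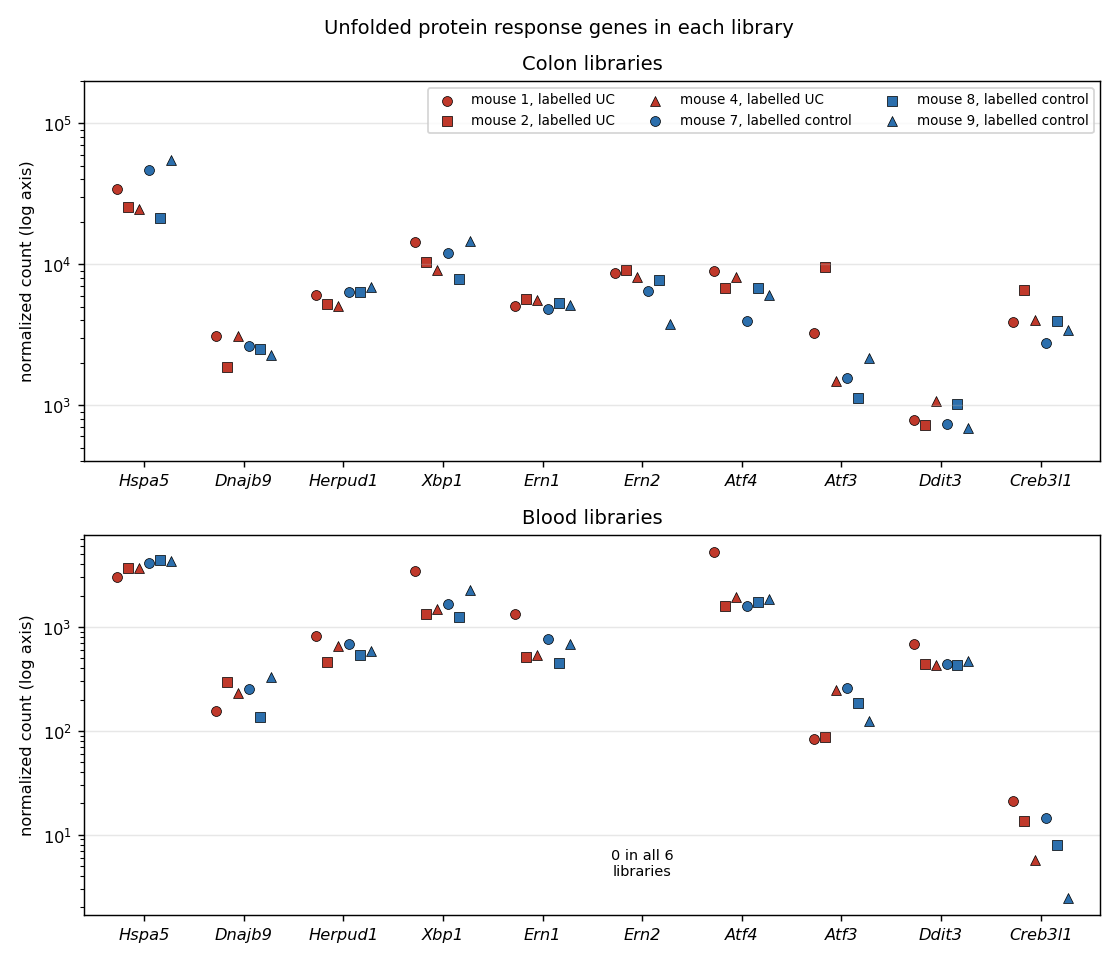
Normalized counts of the 10 genes in each colon library (top) and each blood library (bottom), on log axes, with 1 point per mouse coloured by its disease label. The scales of the tissues were set separately. In the colon, Atf3 of mouse 2 (9631) stands apart, and in the blood, Atf4 of mouse 1 (5258) does. Ern2 was at 0 in all blood libraries.

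In the blood, mouse 1 had the highest value in 6 of the 9 genes measured there, and the lowest in Hspa5 and Atf3. Atf4 had 5258 in mouse 1 and 1574 and 1959 in mice 2 and 4, against 1574, 1756 and 1838 in mice 7, 8 and 9. Xbp1 had 3450 in mouse 1 and 1259 to 2245 in the other libraries. Ern1 had 1328 there and 451.6 to 765.7 elsewhere, and Ddit3 had 678.2 there and 426.3 to 471.6 elsewhere. The other genes highest in mouse 1 were Herpud1 and Creb3l1, the latter at 21.06 or fewer throughout, and 30.5% of all genes were highest in that library. Hspa5 had 3033 in mouse 1, the lowest of the 6 libraries, as was Atf3 with 84.24. Without mouse 1 the log2FC of Atf4 between labels was 0.04, against 0.76 (SE 0.435) with it, and that of Xbp1 was -0.28 against 0.28. Neither was called.

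Hspa5 was the only member whose labelled groups did not overlap in the blood, 1 of 9 genes against 6.50% of all genes tested. It had 3033, 3658 and 3722 under the UC label and 4157, 4444 and 4268 under the control label (log2FC -0.31, SE 0.204, adjusted p = 1, edgeR). Atf3 was low and uneven in the blood, at 84.24, 87.3 and 247.9 against 261.1, 185 and 124.1. An interaction contrast of all 12 libraries asked whether the labels differed by unlike amounts in colon and blood. Of 23258 genes 1 was called (0.00430%), and 0 of the 9 members that could be compared, none of which reached an unadjusted p under 0.05 in edgeR (793 genes did) or in limma-voom. DESeq2 called 20 genes and no member, with 1 member at an unadjusted p under 0.05. The largest member value was that of Atf3, 1.99 (SE 0.91, unadjusted p = 0.0516, adjusted p = 1, edgeR), and it was 0.73 without mouse 2. Ern2 has no such value because it had no blood counts.

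No gene of the 6 ER stress lists was called between labels in either tissue. These were 9 other sensors and proteases, 5 eIF2alpha kinases and phosphatase subunits, 19 ER chaperones and folding enzymes, 14 genes of ER-associated degradation, 14 of ER translocation and 22 ATF4 and CHOP targets. In the colon, 15 of the 22 targets had a lower fitted value under the UC label (median log2FC -0.51, -0.01 over all genes). An unadjusted p under 0.05 (edgeR) was reached by 3 of them, and by 1.41% of all genes. In the interaction it was reached by 3 of 22, and by 3.41% of all genes. The median deviations of the targets in the colon were 0.27, -0.26 and -0.38 in mice 1, 2 and 4. In mice 7, 8 and 9 they were 0.51, -0.25 and 0.36. Of the 19 chaperones 14 were highest in the colon of mouse 9, where 22.7% of all genes were highest, and their median lay 0.38 above the mean of the colon libraries on the log2 scale there, against -0.37 in mouse 8. Calr, a lectin chaperone, was 62130 in mouse 9 and 29839 in mouse 8, and Manf, a secreted ER stress protein, was 6946 and 2629 (both named after their values were seen). Hspa5 itself had the same highest and lowest mice. The peak in mouse 9 was not particular to the chaperones. There, 9 of 14 translocation genes were highest (median 0.27), as were 4 of 5 mitochondrial chaperones and proteases (median 0.36). No ERSE or ERSE-II was found in the 10 translocation promoters in RefSeq. Fewer were highest there among degradation genes (5 of 14), targets (7 of 22), other sensors (2 of 9) and eIF2alpha kinases and phosphatase subunits (0 of 5). Of the 33 colon genes with ERSE or ERSE-II in the promoter, 16 were highest in mouse 9, as were 8 of the 22 that belong to none of the lists. The sum of 7 neutrophil markers, none of which stayed at or under 3 counts in all colon libraries, was 236.7 to 16776 under the UC label and 389.5 to 52953 under the control label, and it too was highest in mouse 9. So were all 6 monocyte and macrophage markers, whose sum was 5637 to 11240 under the UC label and 4746 to 22459 under the control label. Of 6 fibroblast markers 4 were highest in mouse 9, with sums of 85641 to 131799 and 77685 to 226133. The part of such cells was not tested.

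Of the 21 ATF4 and CHOP targets measured in the blood 11 were highest in mouse 1, where 30.5% of all genes were highest, with a median 0.78 above the mean on the log2 scale, while the chaperone median was -0.17. Other lists were high there too. Highest in mouse 1 were 3 of 5 eIF2alpha kinases and phosphatase subunits (median 0.58), 4 of 7 other sensors and proteases (0.29) and 7 of 13 degradation genes (0.13). Among translocation genes 1 of 14 was (median -0.18). Asns, which makes asparagine, had 2731 in mouse 1 and 124.9 to 688.4 in the other 5. Slc7a5, an amino acid transporter, had 37579 against 2291 to 5519, Atf5 had 986.7 against 20.46 to 182.9, Sesn2 had 1173 against 185 to 294.6, and Trib3, an inhibitor of ATF4 and CHOP, had 97.93 against 6.894 to 16.85. Slc7a5 was named by its colon and blood difference and the other 4 after their values were seen. A C/EBP-ATF element stood in the RefSeq promoter of 6 of 19 targets (Asns, Trib3, Chac1, Slc7a11, Vldlr and Nupr1), against 1219 of 27025 symbols. Of these 6, Asns, Trib3 and Chac1 were highest in the blood of mouse 1, whereas Slc7a11 was highest in mouse 9, Vldlr in mouse 2 and Nupr1 in mouse 7. Of 8 immediate early genes 7 were also highest in mouse 1. The sum of 7 neutrophil markers there was 468935, against 44555 to 365226 in the other blood libraries. Of 5 red cell markers 4 were highest in mouse 1, with a sum of 7804467 against 3953201 to 7440915, and of 6 monocyte and macrophage markers 4 were, with a sum of 15139 against 6468 to 12869. The part of such cells in these values was not tested.

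**Figure D4:**
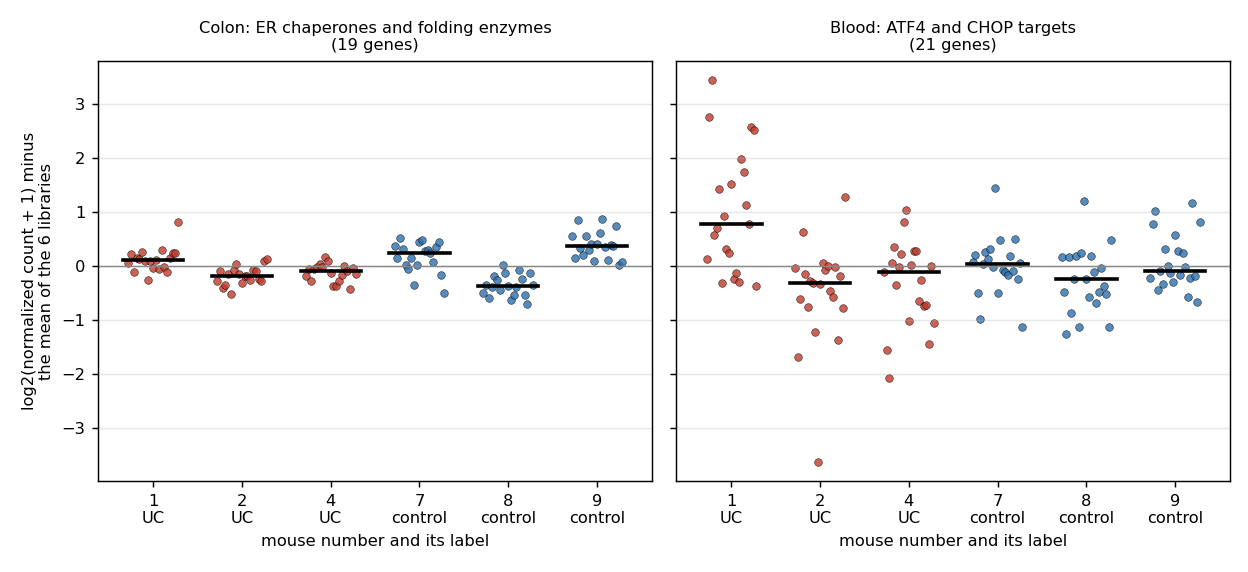
Deviation of each gene from its mean over the 6 libraries, as log2(normalized count + 1), for 19 ER chaperones and folding enzymes in the colon (left) and 21 ATF4 and CHOP targets in the blood (right). Each point is 1 gene, each black line the median of the list in that library, and colour marks the disease label. The chaperone line is highest in mouse 9 (0.38), and the target line is highest in mouse 1 (0.78).

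Between tissues, each list is read against all genes tested, of which 37.7% were called higher in the colon and 20.8% lower. Of the 19 chaperones 13 were called higher and 1 lower (Ero1lb, an ER oxidase, log2FC -3.12), with a median of 1.44 against 0.46 over all genes. Calr differed by 3.59 (SE 0.36, adjusted p = 5.95e-06, edgeR) and Sil1, which recharges BiP with nucleotide, by 2.8. Of 14 degradation genes 3 were called higher (among them Sel1l, 1.18) and 3 lower (among them Erlec1, -2.21, and Derl1, -1.43), at a median of 0.16. Of 14 translocation genes 3 were called higher (Ssr2 at 2.65 and Sec61a1 at 1.56 among them) and 2 lower (Sec61g at -6.3 among them).

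Of the 9 other sensors and proteases 4 were called higher in the colon and none lower. The share called higher was near that of all genes. The 4 included Creb3l2 (2.61) and Creb3l3 (5.62), relatives of Creb3l1, and Creb3l4, which was at 0 in all 6 blood libraries and at 560.6 to 2406 normalized counts in the colon. Of 22 ATF4 and CHOP targets 4 were called higher (Cth at 8.35 and Vldlr at 5.67 among them) and 6 lower (Slc7a5, -5.24, among them), at a median of -0.33. Ppp1r15a (GADD34), which brings a phosphatase to eIF2alpha, was called lower in the colon (log2FC -3.53, SE 0.231, adjusted p = 2.70e-07, edgeR), as was Eif2ak1, the heme-sensing eIF2alpha kinase (-1.96). These directions rest on the scaling. With libraries scaled by their totals alone the median of all genes was 2.57 in place of 0.46, and 18 of 19 chaperones, 11 of 14 degradation genes, 12 of 14 translocation genes, 9 of 9 sensors and proteases and 16 of 22 targets were called higher. Eif2ak1 (0.18) and Derl1 (0.7) then changed sign. Relative to the median of all genes, the median of the targets lay at -0.79, and at -0.74 with totals alone, and that of the chaperones at 0.98 and 1.01. This closeness is built in, since taking the median away removes a shift common to all genes.

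**Figure D5:**
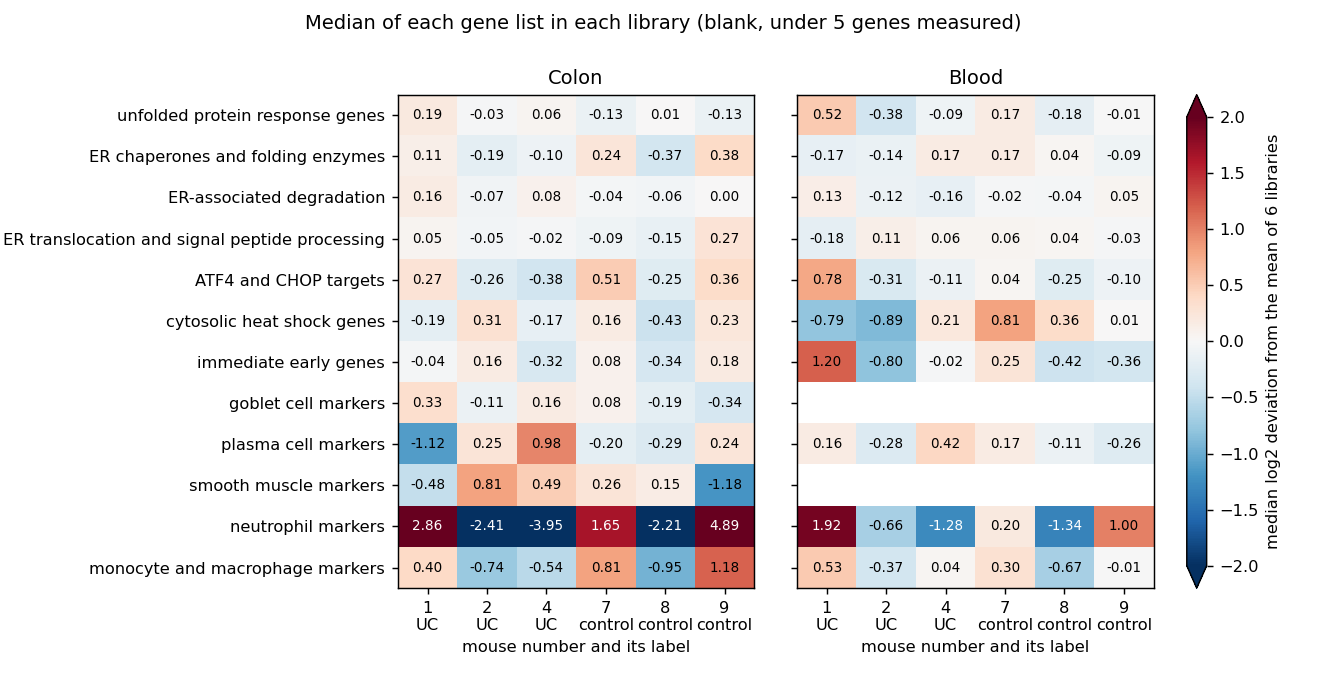
Median log2 deviation of each gene list from the mean of the 6 libraries of a tissue, per library, with the value printed in each cell and colours limited to 2 in each direction. Blank rows had under 5 genes measured. In the colon the chaperones range from -0.37 (mouse 8) to 0.38 (mouse 9), and in the blood the ATF4 and CHOP targets from -0.31 (mouse 2) to 0.78 (mouse 1), beside neutrophil markers that range further in both tissues.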

How the data were processed

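Total RNA was sequenced by the study from colon and blood of the same 6 mice, and the submitters' processing notes name STAR, StringTie 1.3.4c, DESeq2 and the build GRCm38. The deposited count table holds whole-number counts per gene, which the authors computed from StringTie's coverage of Ensembl genes with no strand stated. The deposited normalized tables, 1 per tissue, hold a signal that the authors made by dividing each count by 1 size factor per library. Apart from the goblet cell marker sums and Creb3l4, they were compared only within a tissue. Groups follow the labels for disease state and tissue. A further label names the other tissue in all 12 samples, and the tissue markers match the label used.

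Tests of the counts used edgeR 4.0.16 under R 4.3.3 (TMM, filterByExpr, glmQLFit, glmQLFTest) and Benjamini-Hochberg adjustment, each tissue alone for the labels and all 12 libraries for the interaction and for colon against blood. Calls needed an adjusted p of at most 0.05 and, except for the interaction, an absolute log2FC over 1. SE is the log2FC over the square root of F. DESeq2 1.42.0 and limma 3.58.1 (voom), other scalings and filters, a replicate block and each mouse left out were alternatives. The steps were tested on simulated data. Deviations by library used genes with a mean normalized count of at least 10 and a pseudocount of 1. Lengths came from GENCODE vM21, which held 53620 of 53801 identifiers. Of 177 list genes 175 were found by symbol. Ero1a and Ero1b, other names of Ero1l and Ero1lb, were not.

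Named were all members, the 3 list genes of largest colon against blood log2FC with a mean of at least 100 counts, list genes past a label threshold (there were none) and markers beside a member. The members and lists were chosen with earlier results of these data known. The mouse numbers pair the samples because the study took both tissues from the same animals. Same-numbered libraries deviated together with r of 0.083 to 0.274 across 15647 genes. Counting limits cover counting error only.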

Additional observations from a re-analysis of the deposited data

How the results depend on the processing

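No member was called between labels in the colon, in the blood or in the interaction under any alternative, and the members called higher in colon than in blood were 6 to 10 of 10 (6 with only the genes of the normalized tables, which leave out Ern2, and 10 with totals alone). Genes called in the colon were 6 with DESeq2, 0 with limma-voom and 0 without any one mouse. In the blood 6 were called with DESeq2, 1 with totals alone and 0 to 3 without one mouse, and in the interaction 20 with DESeq2 and 1 to 2 without one mouse. With a replicate block for the mouse number, the interaction called 0 genes, and colon against blood called 12889 genes and the same number of members, 7. The block was used only for these contrasts.

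Signs turned with totals alone, where the median log2FC of all blood genes moved from 0.04 to -0.27, for blood Xbp1 (-0.2), Ddit3 (-0.16), Ern1 (-0.15) and Herpud1 (-0.26), for the interaction of Hspa5 (0.02), Xbp1 (0.15), Atf4 (0.17), Ddit3 (0.26), Ern1 (0.25) and Creb3l1 (0.2), and for colon against blood of Atf4 (2.02) and Ddit3 (1.21). None of the label values passed a test. Without one mouse the colon values ran from -0.25 to 0.15 (Xbp1), -0.13 to 0.27 (Ddit3) and -0.01 to 0.31 (Dnajb9). Those in the blood ran from -0.28 to 0.52 (Xbp1), -0.04 to 0.32 (Ddit3), -0.28 to 0.54 (Ern1), -0.12 to 0.28 (Herpud1) and -0.34 to 0.23 (Dnajb9). Interaction values ran from -0.52 to 0.03 (Xbp1), -0.51 to 0.36 (Atf4), -0.45 to 0.16 (Ddit3), -0.52 to 0.42 (Ern1), -0.17 to 0.6 (Dnajb9) and -1.03 to 0.56 (Creb3l1), and Atf4 in colon against blood from -0.25 to 0.19. Blood values of Creb3l1 rest on 3 to 20 counts per library. The cause of these shifts was not tested.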

Other observations

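The cytosolic heat shock genes and the mitochondrial chaperones act in other compartments than the ER genes above. In the blood, all 8 heat shock genes had a lower fitted value in the libraries labelled UC (median log2FC -0.75 against 0.04 over all genes), 1 at an unadjusted p under 0.05 and none called (edgeR). Of the 7 that were measured well enough for a value per library, 6 were highest in mouse 7, where 7.59% of all genes were highest. Hspa1a, an inducible HSP70, had 61.08, 30.1 and 205.4 in mice 1, 2 and 4 and 443.3, 366.5 and 97.63 in mice 7, 8 and 9 (named after its values were seen). The groups overlapped, and in the colon the same gene was highest in mouse 2, at 3646, together with Atf3.

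Of 5 mitochondrial chaperones and proteases 2 were called higher in colon than in blood and none lower, a share near the 37.7% of all genes called higher. The median log2FC was 0.95, and 0.46 over all genes. The 2 were Hspa9 (mortalin, the mitochondrial HSP70), with a log2FC of 2.34 (adjusted p = 5.89e-07, edgeR), and Clpp (a matrix protease subunit), with 1.88. None was called between labels, and their fitted values between labels lay between -0.19 and 0.07 in the colon and between -0.37 and 0.32 in the blood.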
